A study of Mus musculus with 6 samples.

Results

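The immediate early genes described here are a list of 10 genes, Fos, Fosb, Jun, Junb, Jund, Egr1, Egr2, Btg2, Ier2 and Atf3, matched by symbol to the authors' gene table. Of these, 9 were among the 12072 genes analysed, and Fosb was not analysed here. RNA came from the left ventricle of mice aged 30 weeks on a chow diet. The groups were fl/fl mice, which carry floxed Mpc2 alleles, and CS-Mpc2-/- mice, in which Mpc2, a subunit of the mitochondrial pyruvate carrier, is deleted. The labels name neither the promoter that drives the recombinase nor a strain, sex or control for the recombinase alone. Each group had 6 mice, and RNA of 2 hearts was pooled per library, so the comparison is of 3 libraries against 3, each a separate pool of animals. The question that the comparison addresses is how the ventricular transcriptome differs with the Mpc2 deletion. The series title ties the comparison to cardiac glycogen and heart failure.

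Immediate early genes are switched on within minutes of a stimulus such as stretch, growth factors or calcium, by transcription factors that are already in the cell, chiefly serum response factor with its ternary complex partners and CREB. Most of their products are themselves transcription factors. Fos and Jun proteins pair through leucine zippers to form AP-1, Atf3 is a related zipper protein induced by stress, and EGR proteins bind GC-rich sites through zinc fingers. In the heart these genes are known for their rapid and brief induction by pressure load and adrenergic signals.

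Each of the sequences below holds a match to a motif through which immediate early genes are known to be controlled. Btg2, Egr2 and Atf3 are also among the genes with the largest differences, and the level of Jun differed little. Fosb, whose window held an EGR site, was not analysed here and is not shown. The sequences are the 250 bases before the RefSeq transcription start (GRCm38.p6), read 5' to 3' on the gene's strand. Capitals mark matches to the motifs searched on both strands, namely the CRE core TGACGT (bound by CREB and ATF proteins, and contained in the full CRE TGACGTCA), the Jun site TGACATCA, the AP-1 site TGANTCA, the EGR site GCGNGGGCG, the TATA box TATAAA, and the CArG box of serum response factor.
Btg2, chr1:134079156-134079405, minus strand: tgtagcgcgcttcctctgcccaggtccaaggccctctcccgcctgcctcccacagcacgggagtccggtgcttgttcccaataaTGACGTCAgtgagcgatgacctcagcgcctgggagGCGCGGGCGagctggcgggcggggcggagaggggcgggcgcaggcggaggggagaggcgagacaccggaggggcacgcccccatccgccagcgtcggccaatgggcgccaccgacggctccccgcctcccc
Egr2, chr10:67537619-67537868, plus strand: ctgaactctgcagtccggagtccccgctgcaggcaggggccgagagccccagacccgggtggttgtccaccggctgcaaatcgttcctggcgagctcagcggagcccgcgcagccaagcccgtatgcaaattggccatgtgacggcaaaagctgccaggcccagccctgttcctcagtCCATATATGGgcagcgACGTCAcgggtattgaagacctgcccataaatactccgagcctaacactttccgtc
Fos, chr12:85473640-85473889, plus strand: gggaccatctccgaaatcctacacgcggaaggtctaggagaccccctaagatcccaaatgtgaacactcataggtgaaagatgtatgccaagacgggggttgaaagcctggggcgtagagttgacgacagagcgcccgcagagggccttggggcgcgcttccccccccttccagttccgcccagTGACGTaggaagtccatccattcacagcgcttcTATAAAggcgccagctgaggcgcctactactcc
Atf3, chr1:191183334-191183583, minus strand: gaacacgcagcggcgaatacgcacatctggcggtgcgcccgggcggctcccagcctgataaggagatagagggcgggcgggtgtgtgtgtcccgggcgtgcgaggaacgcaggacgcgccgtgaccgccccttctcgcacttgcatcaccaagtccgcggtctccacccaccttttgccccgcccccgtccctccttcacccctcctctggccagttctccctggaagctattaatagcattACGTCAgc
Jun, chr4:95052223-95052472, minus strand: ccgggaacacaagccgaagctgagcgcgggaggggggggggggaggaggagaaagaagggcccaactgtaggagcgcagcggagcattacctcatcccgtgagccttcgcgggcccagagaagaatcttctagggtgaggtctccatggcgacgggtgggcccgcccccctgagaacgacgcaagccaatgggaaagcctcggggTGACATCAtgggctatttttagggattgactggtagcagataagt

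A CRE core lay in the windows of Btg2, Egr2, Fos and Atf3, which is 4 of the 8 listed genes with a promoter entry, against 6.47% of the 32851 promoter windows in the same table (the 8 genes have 12 windows in all, and any of them counted). In Btg2 it was a full CRE from -166 to -159, a motif found in 1.55% of windows, and an EGR site, found also in the window of Fosb, stood from -131 to -123 (4.70% of windows). In Egr2 a CArG box from -72 to -63 (1.47% of windows) stood upstream of a CRE core on the opposite strand from -56 to -51. Egr2 has 5 annotated start windows, and the one shown belongs to its longest coding transcript. Fos had its CRE core from -66 to -61 and a TATA box from -33 to -28 (12.4% of windows). In Atf3 the CRE core lay from -8 to -3 of the RefSeq start on the opposite strand, and Jun held the Jun site from -45 to -38 (2.93% of windows). The window of Junb held none of these motifs, and an AP-1 site was found in the window of 0 of the 8 genes (6.75% of windows). A match is a run of letters, and binding was not measured.

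**Figure D1:**
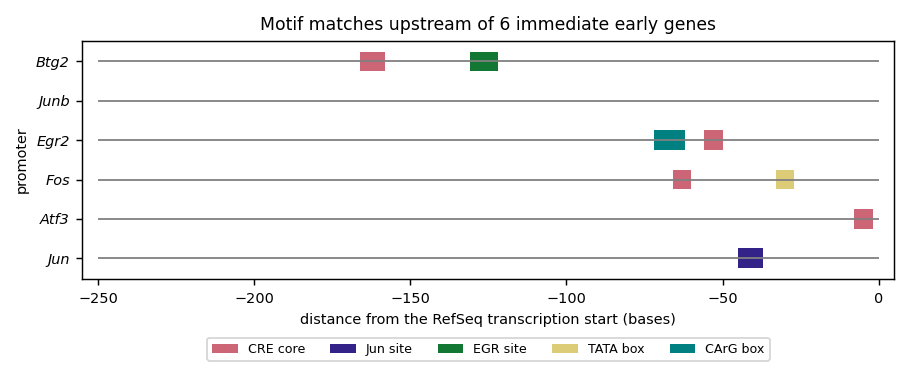
Motif matches in the 250 bases before the RefSeq start of 6 genes, with distance from the start in bases on the horizontal axis and 1 line per promoter. Coloured blocks are matches on either strand, and the CRE core stands in Btg2, Egr2, Fos and Atf3.

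Values are read coverage per gene, expressed per 1000000 of the library total (ppm). Depth was inferred from the library total divided by the smallest value in the library, called here 1 step. So inferred, it ran from 92.9 to 389 in 1000000 steps, with fl/fl replicates 1 and 2 the shallowest at 92.9 and 202. The next smallest value was 21 to 47 steps, and whether the smallest value is a unit of counting was not tested. In those units the values of the listed genes ran from 1 step (Egr2 in fl/fl replicates 1 and 2) to 50013 steps (Jun in fl/fl replicate 3). The step is not a read, so counting error cannot be given. The 3 fl/fl libraries held 45.2, 38.9 and 27.7 ppm of Mpc2 itself. CS-Mpc2-/- replicates 1 and 2 held 14.9 and 18.2 ppm, against 46.3 ppm for the third, called here the library labelled CS-Mpc2-/- replicate 3 because its Mpc2 level goes against its label. Fl/fl replicate 3 had the lowest Mpc2 level of its group, though above CS-Mpc2-/- replicates 1 and 2. Whether any library carries the wrong label was not tested, and every group mean and difference that includes replicate 3 of either group rests on the labels as given. Leaving out fl/fl replicate 3 took the number of genes called over all genes from 0 to 1317, so results are given with all 6 libraries, without fl/fl replicate 3, and without replicate 3 of both groups.

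All 9 genes analysed had a positive log2 difference between CS-Mpc2-/- and fl/fl, as did 54.4% of all genes, and 6 of them, Egr2, Junb, Btg2, Atf3, Egr1 and Fos, were at least 1.5 times higher by the ratio of means, as were 10.7% of all genes. With all 6 libraries 0 of the 9 passed limma's test adjusted over all genes, as did 0% of the 12072 genes in either direction (lowest adjusted p = 0.220). At a p under 0.05 before adjustment, 4 were higher (Btg2, Junb, Egr2 and Atf3) and 0 lower, where 8.08% of all genes were higher and 5.43% lower. The 3 CS-Mpc2-/- values lay wholly above the fl/fl values for 4 genes, Fos, Junb, Egr2 and Btg2, and for 8.01% of all genes. They lay wholly below for 0 of the 9 and for 6.48% of all genes, so 14.5% of all genes had no overlap in either direction. The median log2 difference was 0.76 over the 9 genes and 0.04 over all genes, and for the 9 it was 1.08 without replicate 3 of both groups and 0.52 when CS-Mpc2-/- replicate 1 was left out. Egr2 is in the table only because its CS-Mpc2-/- mean is high enough, as its fl/fl mean lies below the level at which genes were listed, so its difference is partly a condition of its presence here. Without it, 3 of the other 8 were higher before adjustment and their median was 0.68. Fos, Junb and Btg2 then remained without overlap, and Junb, Btg2, Atf3, Egr1 and Fos at least 1.5 times higher.

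**Figure D2:**
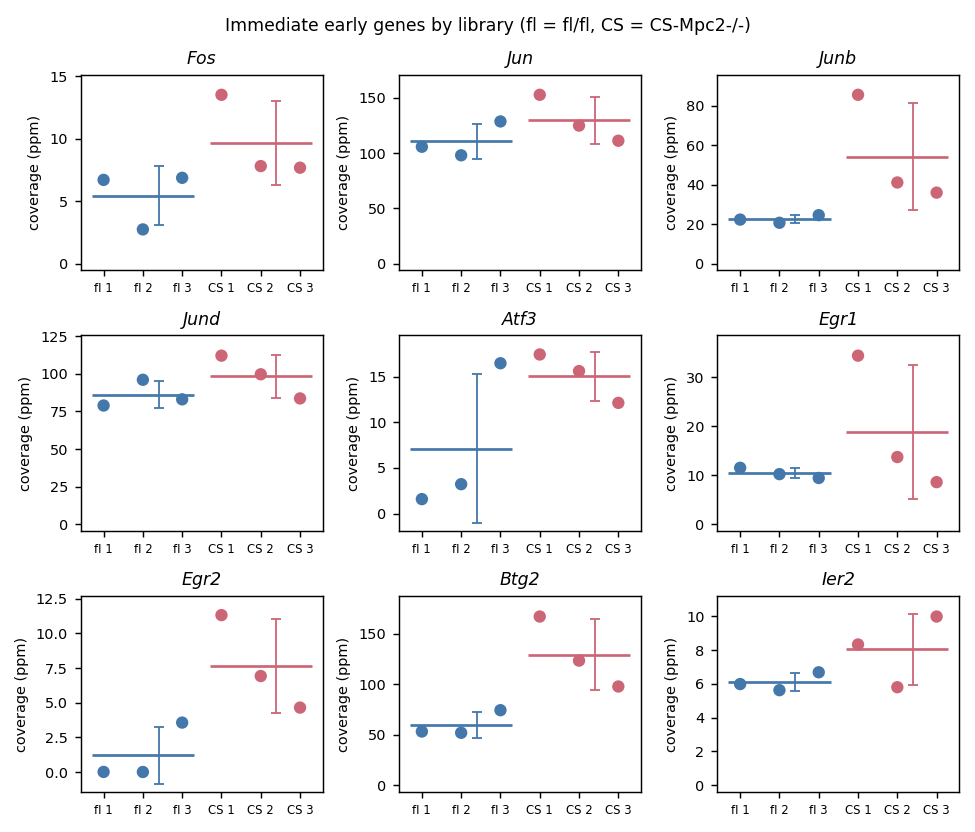
Coverage in ppm (vertical axis, linear) of the 9 genes in each library (horizontal axis, blue fl/fl and red CS-Mpc2-/-). Horizontal lines are group means and bars are SD (n = 3); Junb, Btg2, Egr2 and Fos show no overlap between groups, and CS-Mpc2-/- replicate 1 is the highest library for 8 of the 9 genes.

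The Jun proteins can pair with each other or with Fos proteins. Junb, known as a weaker activator than Jun that can restrain it, measured 22.3, 20.7 and 24.6 ppm across fl/fl and 85.6, 41.2 and 36.0 ppm in CS-Mpc2-/-. All 3 fl/fl libraries, replicate 3 included, lay close together and below every CS-Mpc2-/- library, while the CS-Mpc2-/- libraries spread widely. Mean levels were 22.5 ± 1.94 ppm in fl/fl and 54.3 ± 27.3 ppm in CS-Mpc2-/- (SD, n = 3 each), and their ratio was 2.41. On the log2 scale the difference amounted to 1.13 ± 0.28 (SE), limma gave p = 0.220 after Benjamini-Hochberg adjustment over all genes, and an exact two-sided permutation test gave p = 0.1, the smallest that 3 against 3 libraries allow. Without CS-Mpc2-/- replicate 1 the log2 difference was 0.75. Junb (ENSMUSG00000052837.6) lies on chromosome 8 from 84974484 to 84978718, minus strand of mm10, and overlaps the annotated gene Prdx2 on the other strand. Whether counting used the strand is not given, so coverage of the overlap cannot be assigned. Prdx2, a peroxiredoxin, was at 80.0 ± 11.6 ppm in fl/fl and 86.7 ± 11.0 in CS-Mpc2-/- (SD, n = 3 each).

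Jun, the core AP-1 activator, measured 106, 97.9 and 129 ppm across fl/fl and 153, 125 and 111 ppm in CS-Mpc2-/-, and the groups overlapped. Its log2 difference was 0.22 ± 0.18 (SE; limma adjusted p = 0.607; exact permutation p = 0.3). Jund, the Jun protein that is present in resting cells, was at 78.9, 96.0 and 83.0 ppm against 112, 99.7 and 83.6. It too overlapped, with a log2 difference of 0.19 ± 0.18 (SE; limma adjusted p = 0.656; exact permutation p = 0.2). Leaving out CS-Mpc2-/- replicate 1 gave 0.098 for Jun and 0.090 for Jund, and whether Junb differed more than Jun or Jund was not tested. Per kb of transcript, Junb stood at 0.37, 0.37 and 0.34 of the Jun level across the 3 fl/fl libraries, and at 0.99, 0.58 and 0.57 of it across the 3 CS-Mpc2-/- libraries. Jun and Jund each overlap an annotated antisense gene, Junos and Gm11175, whose coverage cannot be separated here. Within a library the ratio of these genes does not depend on the scaling of that library, and fl/fl replicate 3 lay here with its own group.

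Fos, the partner that makes AP-1 with Jun proteins, was scarce in every library. It measured 6.70, 2.73 and 6.86 ppm across fl/fl and 13.5, 7.80 and 7.67 ppm in CS-Mpc2-/-. The groups did not overlap, but fl/fl replicates 1 and 3 lay close under the lower CS-Mpc2-/- libraries. The log2 difference was 0.76 ± 0.36 (SE; limma adjusted p = 0.385; exact permutation p = 0.1), and it was 0.41 without fl/fl replicate 2, the lowest library. Fos lies on chromosome 12 from 85473890 to 85477273, plus strand, and its coverage in fl/fl replicates 1 and 2 was 622 and 553 steps, among the thinnest of the list.

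Atf3, a stress-induced zipper protein that pairs with Jun proteins and often represses, split the fl/fl group. Fl/fl replicates 1 and 2 held 1.58 and 3.22 ppm but fl/fl replicate 3 held 16.5, and CS-Mpc2-/- libraries held 17.5, 15.6 and 12.1 ppm. Fl/fl replicate 3 was thus above 2 of the 3 CS-Mpc2-/- libraries, and the groups overlapped. With all 6 libraries the log2 difference was 1.47 ± 0.54 (SE; limma adjusted p = 0.293; exact permutation p = 0.3). Without fl/fl replicate 3 it was 2.27 ± 0.34 (limma adjusted p = 0.00103, and 0.00103 to 0.769 over all alternatives), and without fl/fl replicate 1 it was 0.89. Atf3 lies on chromosome 1 from 191170296 to 191218039, minus strand, and overlaps the small RNA gene Gm24748.

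Of the EGR proteins, which share a zinc finger domain and are checked by the NAB corepressors, Egr1 is the member induced most widely and Egr2 is best known from Schwann cells and lymphocytes. Egr1 measured 11.6, 10.3 and 9.49 ppm across fl/fl and 34.5, 13.8 and 8.63 ppm in CS-Mpc2-/-. Its higher mean rested on CS-Mpc2-/- replicate 1, at 3.08 times the mean of the other CS-Mpc2-/- libraries, and the library labelled CS-Mpc2-/- replicate 3 was the lowest of all 6. The log2 difference was 0.59 ± 0.39 (SE; limma adjusted p = 0.524; exact permutation p = 0.4), 0.06 without CS-Mpc2-/- replicate 1 and 1.004 when the library labelled CS-Mpc2-/- replicate 3 was left out.

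For Egr2, fl/fl replicates 1 and 2 held only the smallest step, fl/fl replicate 3 held 3.57 ppm, and the CS-Mpc2-/- libraries held 11.3, 6.93 and 4.65 ppm. Fl/fl replicate 3 lay just under the lowest CS-Mpc2-/- library. The libraries at the smallest step are the shallowest by the depth inferred from that step. The level of fl/fl replicate 3 would amount to 331 and 722 steps in them, where 1 step was listed in each. The next smallest value of any gene was 21 steps in each, so these differences in steps are not counts of reads. Whether 1 step stands for no coverage was not tested. The smallest step was the value of 78 and 50 of the 12072 genes in fl/fl replicates 1 and 2 and of 2 in fl/fl replicate 3. The log2 difference was 2.30 ± 0.58 (SE; limma adjusted p = 0.220; exact permutation p = 0.1), and it was 1.04 with a pseudocount of 5 ppm and 4.38 with 0.1 ppm. Egr2 lies on chromosome 10 from 67535475 to 67542188, plus strand.

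Btg2, an antiproliferative protein that recruits the CCR4-NOT deadenylase to messenger RNA and is also a p53 target, had the smallest unadjusted p of the list (0.000353). It measured 53.2, 52.0 and 74.3 ppm across fl/fl and 167, 123 and 97.8 ppm in CS-Mpc2-/-. Every CS-Mpc2-/- library was above every fl/fl library, and fl/fl replicate 3 was the highest of its group. Mean levels were 59.8 ± 12.6 ppm in fl/fl and 129 ± 35.0 ppm in CS-Mpc2-/- (SD, n = 3 each), with a ratio of 2.16, and the log2 difference was 1.08 ± 0.22 (SE; limma adjusted p = 0.220; exact permutation p = 0.1). Btg2 lies on chromosome 1 from 134075170 to 134079120, minus strand, with 2 exons and 0 overlapping annotated genes. Its paralog Btg1 was at 10.8 ± 2.15 ppm in fl/fl and 10.0 ± 1.86 in CS-Mpc2-/- (SD, n = 3 each).

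Ier2, a small nuclear protein of the early response, measured 5.99, 5.63 and 6.68 ppm across fl/fl and 8.33, 5.80 and 9.98 ppm in CS-Mpc2-/-. It was the 1 gene of the list whose highest value belonged to the library labelled CS-Mpc2-/- replicate 3, while CS-Mpc2-/- replicate 2 lay within the fl/fl range. The log2 difference was 0.32 ± 0.29 (SE; limma adjusted p = 0.646; exact permutation p = 0.3).

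Relative to each gene's own mean, the libraries did not move as blocks of 3. The median of the 9 genes, on the centred log2 scale, was -0.21, -0.68 and -0.045 across the 3 fl/fl libraries, 0.94, 0.15 and 0.13 across the 3 CS-Mpc2-/- libraries, in the order of their numbers. CS-Mpc2-/- replicate 1 was the highest library for 8 of the 9 genes and for 21.4% of all genes. The place of fl/fl replicate 3 between the mean of fl/fl replicates 1 and 2 (0) and the CS-Mpc2-/- mean (1) differed from gene to gene on the log2 scale. It was 1.06 for Atf3, 0.72 for Egr2, 0.58 for Fos, 0.39 for Btg2 and 0.15 for Junb. Jun, Jund, Egr1 and Ier2 differed too little between the groups for this position to be read.

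**Figure D3:**
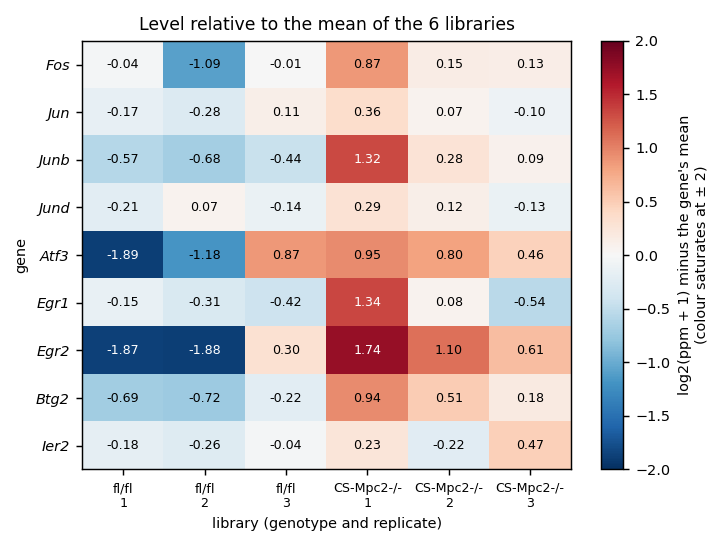
Level of each gene (rows) in each library (columns) as log2(ppm + 1) minus the gene's mean over the 6 libraries, with red above and blue below that mean. Fl/fl replicate 3 is blue for Junb (-0.44) and Btg2 (-0.22) but red for Atf3 (0.87) and Egr2 (0.30).

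Leaving out fl/fl replicate 3, 4 of the 9 genes passed as higher in limma (adjusted p under 0.05) and 0 as lower, namely Btg2, Junb, Egr2 and Atf3, where 6.51% of all genes were higher and 4.4% lower. Without Egr2, which is in the table only through its CS-Mpc2-/- mean, 3 of the other 8 passed in this fit. The log2 differences in this fit were 1.25 ± 0.22 for Btg2, 1.19 ± 0.30 for Junb and 3.02 ± 0.46 for Egr2 (SE). Their limma adjusted p-values were 0.00259, 0.0237 and 0.00107. The same 4 passed without replicate 3 of both groups (7.24% of all genes higher and 5.3% lower), with 1.43 ± 0.19 for Btg2 and 1.43 ± 0.29 for Junb (SE), and with limma's array weights on all 6 libraries (2.66% of all genes higher and 1.84% lower). Without Egr2, 3 of the other 8 passed without replicate 3 of both groups. Fl/fl replicate 3 was the highest fl/fl library for each of these 4 genes, so leaving it out must widen their differences. These fits share libraries and are not separate support, and each fit that left out 1 other library called 0 of the 9. Over all alternatives the limma adjusted p ran from 0.000227 to 0.769 for Btg2 and from 0.00568 to 0.769 for Junb. For Egr2 it ran from 0.00107 to 0.769. Fos, Jun, Jund, Egr1 and Ier2 passed in none of the alternatives run, with smallest adjusted p-values of 0.129, 0.112, 0.345, 0.116 and 0.512 in limma. In the authors' deposited table, Btg2 and Egr2 had an unadjusted p under 0.05, with p = 0.0316 and p = 0.0482, as did 6.18% of all its genes.

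**Figure D4:**
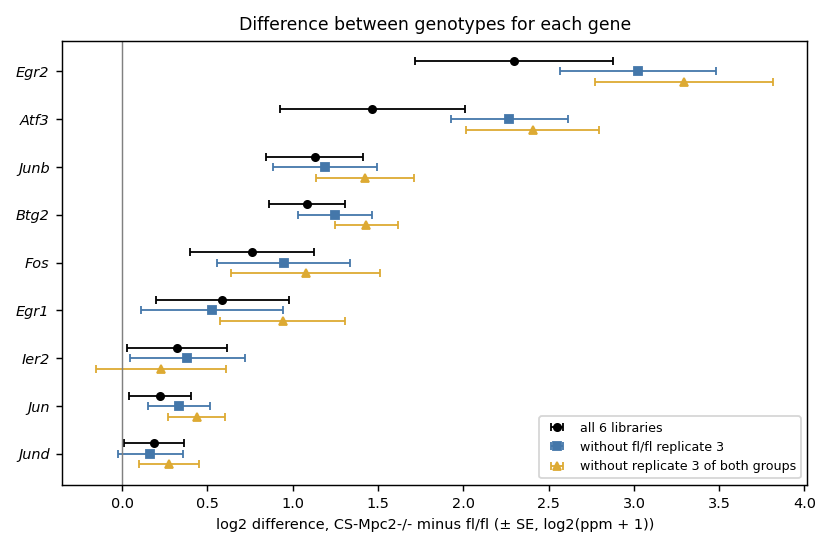
Log2 difference between CS-Mpc2-/- and fl/fl (horizontal axis, log2(ppm + 1), bars are SE) for each gene with all 6 libraries, without fl/fl replicate 3 and without replicate 3 of both groups. Egr2 and Atf3 move most between fits, from 2.30 to 3.29 and from 1.47 to 2.41, while Jund stays between 0.17 and 0.28.

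As families, the AP-1 members (Fos, Jun, Junb, Jund and Atf3) summed to 96.8, 103 and 115 ppm per kb of transcript across the 3 fl/fl libraries and to 178, 133 and 115 across the 3 CS-Mpc2-/- libraries. The library labelled CS-Mpc2-/- replicate 3 was thus at the level of fl/fl replicate 3, and the groups overlapped. Jund was the most abundant member per kb in every library, with 43.2 to 56.1% of the sum in fl/fl and 37.8 to 44.9% in CS-Mpc2-/-. Junb made up 12.8, 11.2 and 11.8% of the sum in fl/fl and 26.7, 17.1 and 17.4% in CS-Mpc2-/-, with no overlap. Fos made up at most 3.61% in any library. Its relative Fosl2, a Fos protein with a longer-lived response, was 2.47 to 6.47 times as abundant per kb as Fos in every library. Egr1 and Egr2 together summed to 2.58, 2.29 and 3.32 ppm per kb in fl/fl and to 11.5, 5.40 and 3.49 in CS-Mpc2-/-. Of that sum Egr2 was 36.3% in fl/fl replicate 3 and 33.2 to 44.9% in CS-Mpc2-/-, and under 1% in fl/fl replicates 1 and 2.

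**Figure D5:**
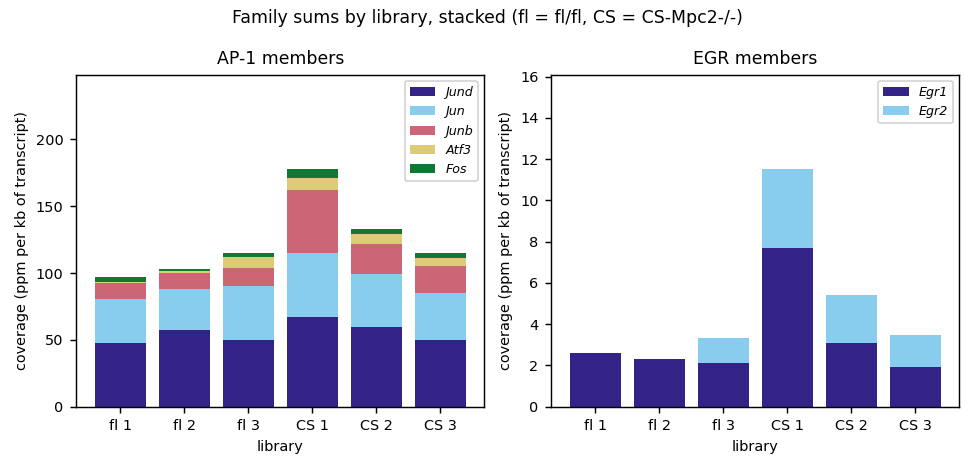
Coverage per kb of transcript (ppm per kb, vertical axes from 0) by library, stacked by gene, for the AP-1 members on the left and Egr1 and Egr2 on the right. The Junb segment is larger in the 3 CS-Mpc2-/- libraries, and Egr2 is visible in fl/fl replicate 3 and in CS-Mpc2-/-.

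The means per kb gave the order of the 9 genes. In fl/fl it ran from Jund (51.6 ppm per kb) through Jun (34.7), Btg2 (21.8), Junb (12.5), Ier2 (4.01), Atf3 (3.58), Fos (2.58) and Egr1 (2.33) to Egr2 (0.40). In CS-Mpc2-/- Jund (59.0) was followed by Btg2 (47.2), Jun (40.6) and Junb (30.0). In fl/fl, neighbours among Ier2, Atf3, Fos and Egr1 did not differ beyond the spread between libraries.

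The genes share a compact structure. Jun, Junb, Jund and Ier2 have a single exon, as do 2.12% of the 10998 coding genes matched to the annotation, and the others have 2 to 4, against a median of 9. Their transcripts have 1522 to 4484 nt. Other single-exon coding genes (229) had a median log2 difference of 0.05, other coding genes with at most 4 exons (2149) one of 0.09, and other coding genes in the same range of length (6312) one of 0.03.

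The other genes of the response (Fosl1, Egr3 and Egr4 were not analysed here) were read from lists of AP-1 partners, EGR regulators, further immediate early genes, MAPK feedback, upstream kinases and factors, BTG partners and known targets. In each of these lists 0 genes passed in either direction with all 6 libraries (limma, adjusted over all genes). Beside 0.04 over all genes, the median log2 difference was -0.02 for AP-1 partners, 0.20 for EGR regulators, 0.28 for further immediate early genes, 0.28 for MAPK feedback, -0.12 for upstream genes and -0.05 for BTG partners. Of 13 measured AP-1 and zipper partners, 3 were higher and 0 lower without fl/fl replicate 3 (6.51% and 4.4% of all genes), and again 3 and 0 without replicate 3 of both groups (7.24% and 5.3% of all genes). They were Fosl2, and the small Maf proteins Mafk and Maff, which lack an activation domain. Mafk measured 45.1, 34.6 and 89.9 ppm across fl/fl and 111, 139 and 104 in CS-Mpc2-/-, without overlap (log2 difference 1.16 ± 0.29, SE; limma adjusted p = 0.220). Fosl2 was at 51.3, 54.8 and 77.8 ppm against 115, 85.1 and 74.8, with the library labelled CS-Mpc2-/- replicate 3 inside the fl/fl range. Maff, with 22.5 ppm in fl/fl replicate 3 against 19.4 to 35.4 in CS-Mpc2-/-, overlapped as well. The EGR corepressors Nab1 (log2 difference 0.30 ± 0.19) and Nab2 (0.20 ± 0.26) and the related factor Wt1 (-0.50 ± 0.30, SE) passed in none of the fits with all 6 libraries, without fl/fl replicate 3 and without replicate 3 of both groups.

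Of 36 further immediate early genes measured, 10 were higher and 1 lower at an unadjusted p under 0.05 (8.08% and 5.43% of all genes). After adjustment 5 passed as higher and 1 as lower without fl/fl replicate 3 (6.51% and 4.4% of all genes), and 9 and 1 without replicate 3 of both groups (7.24% and 5.3%). The smallest unadjusted p belonged to Ier5, a relative of Ier2 that acts with heat shock factor, at 25.8, 28.2 and 25.1 ppm in fl/fl and 64.7, 50.0 and 44.7 in CS-Mpc2-/-. As for Junb, all 3 fl/fl libraries lay close together and below CS-Mpc2-/- (log2 difference 0.97 ± 0.20, SE; limma adjusted p = 0.220). Klf10, a factor induced by TGF-beta, showed the same arrangement, at 27.9, 31.7 and 29.3 against 45.5, 39.2 and 47.8 ppm (0.56 ± 0.18, SE; limma adjusted p = 0.264). Ctgf, a matricellular protein, instead placed fl/fl replicate 3 (848 ppm) near CS-Mpc2-/- (948 to 1301) and far from fl/fl replicates 1 and 2 (113 and 146). The gene lower without fl/fl replicate 3 was the growth arrest gene Gadd45a.

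The counts that follow stand beside 6.51% of all genes higher and 4.4% lower without fl/fl replicate 3. Without replicate 3 of both groups these shares were 7.24% and 5.3%. Among 11 measured MAPK phosphatases and feedback genes, Dusp6, the ERK phosphatase, measured 39.3, 28.9 and 67.2 ppm across fl/fl and 111, 67.0 and 67.8 in CS-Mpc2-/-. It was the 1 gene of this list higher without fl/fl replicate 3 (0 lower). Without replicate 3 of both groups 3 were higher and 0 lower, the others being Spry1 and the phosphatase Dusp4. Spry1, an inhibitor of receptor signalling, had a log2 difference of 0.51 ± 0.29 with all 6 libraries and 1.08 ± 0.18 without replicate 3 of both groups (SE; limma adjusted p = 0.00162, and 0.00162 to 0.821 over all alternatives). Its relative Spry4 (0.35 ± 0.20, SE) passed in none of these 3 fits. Of 23 measured upstream genes, among them Srf, its partners and the MAP kinases, 0 were higher without fl/fl replicate 3. As lower 1 passed, a share near the 4.4% of all genes. That was Mapk14, the p38-alpha kinase, at 72.2, 91.9 and 47.6 ppm against 45.0, 44.0 and 48.2, so fl/fl replicate 3 lay within the CS-Mpc2-/- range. The kinases Rps6ka5, which phosphorylates CREB and histone H3, and Rps6ka2 had log2 differences of -0.64 ± 0.26 and -0.39 ± 0.18 (SE). Without replicate 3 of both groups 2 upstream genes were lower and 0 higher, Mapk14 and Rps6ka5, the latter with -1.01 ± 0.28 (SE; limma adjusted p = 0.0303, and 0.0303 to 0.793 over all alternatives). Of 10 measured BTG and CCR4-NOT genes 1, Tob2, was lower and 0 higher without fl/fl replicate 3, at 146, 177 and 77.9 ppm in fl/fl and 80.4, 94.0 and 73.4 in CS-Mpc2-/-. Cnot1, the scaffold of the complex, had a log2 difference of -0.35 ± 0.16 and Cnot6, a deadenylase subunit, 0.45 ± 0.27 (SE). Without replicate 3 of both groups Tob2 and Cnot1 were the 2 lower genes (0 higher), Cnot1 with -0.52 ± 0.15 (SE; limma adjusted p = 0.0362, and 0.0362 to 0.793 over all alternatives).

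Genes known as AP-1 or EGR targets had a median log2 difference of 0.80 over 13 measured, beside 0.04 over all genes, with 8 higher and 0 lower at an unadjusted p under 0.05 (8.08% and 5.43% of all genes). In limma 7 were higher and 0 lower without fl/fl replicate 3 (6.51% and 4.4% of all genes), and 10 and 0 without replicate 3 of both groups (7.24% and 5.3%). Mmp3 and Spp1 are in the table only through their CS-Mpc2-/- means, as Egr2 is, and without them the median was 0.65 over 11 genes, with 6 higher before adjustment, 6 without fl/fl replicate 3 and 8 without replicate 3 of both groups. Hmox1, heme oxygenase, measured 3.21, 7.10 and 8.87 ppm across fl/fl and 22.5, 21.3 and 9.55 in CS-Mpc2-/-, without overlap (1.35 ± 0.38, SE; limma adjusted p = 0.220). Timp1, a metalloproteinase inhibitor, was at 1.09, 2.15 and 10.0 against 134, 15.1 and 10.1, so the library labelled CS-Mpc2-/- replicate 3 and fl/fl replicate 3 had nearly the same level. Mmp3, stromelysin, stood at the smallest step for fl/fl replicate 2, at 1.62 and 5.61 ppm for fl/fl replicates 1 and 3, and at 16.8, 8.46 and 5.15 for CS-Mpc2-/-.

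CS-Mpc2-/- replicate 1, the highest library for 8 of the 9 genes, also had the highest summed coverage of fibroblast markers. The 10 fibroblast markers, all measured, summed to 2350, 2382 and 2885 ppm across the 3 fl/fl libraries, and to 6316, 3267 and 3020 ppm across the 3 CS-Mpc2-/- libraries. Of these, 6 were higher with no overlap between groups (8.01% of all genes), and the groups overlapped for the rest. CS-Mpc2-/- replicate 1 was the highest library for 6 of the 10 markers (21.4% of all genes). At the smallest step in any library were 0 of the 10. The 8 measured of 10 macrophage markers summed to 367 to 449 ppm in fl/fl and to 469 to 623 in CS-Mpc2-/-, and again CS-Mpc2-/- replicate 1 was highest. Smooth muscle markers (7) summed to 797 to 847 and 771 to 833 ppm, and endothelial markers (10) to 1545 to 1712 and 1501 to 1850. Red blood cell markers (3 of 5) summed to 567 to 836 and 468 to 920 ppm, and neutrophil markers (2 of 5, both listed only through CS-Mpc2-/-) to 1.04 to 6.96 and 3.44 to 13.9. The 9 cardiomyocyte markers summed to 170068, 175138 and 135153 ppm across the 3 fl/fl libraries. In CS-Mpc2-/- they summed to 126716, 135572 and 141038 ppm, so fl/fl replicate 3 lay within the CS-Mpc2-/- range. They were the dominant class in every library, as the tissue label has it. At an unadjusted p under 0.05 in limma 1 was higher and 3 lower (8.08% and 5.43% of all genes). Without overlap 1 was higher and 1 lower (8.01% and 6.48% of all genes). Lymphocyte and atrial markers were not analysed here. In pooled tissue, more cells of a type and more RNA per cell cannot be told apart, and the part of cell makeup in the values of the immediate early genes was not tested.

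The genes whose pattern over the 6 libraries was nearest to the mean pattern of the 9, by the mean absolute difference of centred log2 values, were Bnc2 (0.057), Sparc (0.059), Tubb2a (0.070), Emilin1 (0.076) and Col14a1 (0.082). Of the list itself Btg2 was nearest to that mean, at 0.094, and Egr2 farthest, at 0.80. Sparc, a collagen-binding matricellular protein, measured 243, 237 and 382 ppm across fl/fl and 608, 472 and 405 in CS-Mpc2-/-. Here fl/fl replicate 3 lay between the other fl/fl libraries and CS-Mpc2-/-. Bnc2 is a zinc finger protein, Tubb2a a tubulin, Emilin1 a protein of elastic fibres, and Col14a1 a fibril-associated collagen.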

How the data were processed

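The authors deposited 1 table with a read coverage signal per gene and library, scaled by them to nearly the same library total, as read from the values. The submitters' processing notes name mm10 as the genome build. The sources used here do not name the aligner, counting, strand setting or annotation. Besides these values the authors deposited a ratio of group means and an unadjusted p-value for each gene. Per the labels' protocols, total RNA was depleted of ribosomal RNA and sequenced on an Ion Torrent Proton. Genes were listed where the larger group mean was at least 2.68 ppm, again as read from the values.

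Each value was divided by the library total and expressed per 1000000 (ppm), then transformed as log2(ppm + 1), which understates changes of low genes. A filter at a mean of 1 ppm removed 0 genes. Groups were compared by limma 3.58.1 in R 4.3.3 (intensity trend, two-sided, group as the only term), with Benjamini-Hochberg adjustment over 12072 genes and a threshold of 0.05. Single genes were also compared by an exact permutation test with 20 arrangements, which cannot go below 0.1. The fit was also run on simulated data with noise of equal spread in both groups and no outlying library. That run checks the computation, not how well the fit suits these libraries. Levels per kb used the longest coding transcript of GENCODE M21, whose symbols matched 94.4% of genes. Promoter sequences are RefSeq's on GRCm38.p6, and 8 of the 10 genes had an entry (Egr1 and Ier2 had none).

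The members, lists and tests were chosen with earlier results of these data known. Named besides the members were Mpc2, the paralogs of members, from each list without calls the 3 genes with the smallest unadjusted p, and the 5 nearest patterns; Prdx2, Gadd45a, Dusp4 and Spp1 were named after their values were seen. Alternatives were upper quartile and median-of-ratios scaling, no trend, robust estimation, pseudocounts of 0.1 and 5 ppm, no filter, a filter at 5 ppm, the replicate number as a block, array weights, each library left out, and replicate 3 of both groups left out.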

Additional observations from a re-analysis of the deposited data

How the results depend on the processing

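All 9 genes kept a positive log2 difference under each of the 17 alternatives that held them. No trend, robust estimation, no filter, the filter at 5 ppm and the replicate block leave a gene's log2 difference as it was. They therefore cannot test its sign. The threshold that the fit with all 6 libraries did not reach was passed by 12 of 152 gene and alternative pairs. These 12 were Btg2, Junb, Egr2 and Atf3 under 3 alternatives, and Egr2 is in the table only through its CS-Mpc2-/- mean. The count of genes called over all genes, 0 with all 6 libraries, was 543 with array weights, 1514 without replicate 3 of both groups, and 0 to 1317 with 1 library left out, where 1317 belongs to the fit without fl/fl replicate 3 and each other such fit gave 0. The count of listed genes called was 4 with array weights, 4 without replicate 3 of both groups and 0 to 4 with 1 library left out. The cause was not tested. The filter at 5 ppm removed Egr2. Signs near 0 turned for Btg1 (0.0095 with array weights, 0.0053 without fl/fl replicate 3, 0.064 without replicate 3 of both groups), Nab2 (-0.050 without CS-Mpc2-/- replicate 1) and Prdx2 (-0.0053 without fl/fl replicate 1). With 1 library left out, the log2 difference of Btg1 ran from -0.25 to 0.0053, that of Nab2 from -0.050 to 0.37 and that of Prdx2 from -0.0053 to 0.20.

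Deviations from the group means correlated over genes at 0.07, -0.04 and -0.07 for libraries with the same replicate number 1, 2 and 3. Libraries with different numbers ran from -0.13 to 0.14, so these values cannot show whether the numbers pair the samples. With the replicate number as a block, 0 genes were called over all genes and 0 of the 9. In fl/fl replicates 1 and 2, the shallowest by inferred depth, Egr2 stood at 1 step in each and Atf3 at 147 and 652 steps. The part of depth in these values was not tested. With pools as the replicates, p-values measure the spread between pools of hearts, not between single animals.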
